A study of Mus musculus with 6 samples.

Results

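The transcripts of 6 genes that encode acidic histone chaperones or their relatives were followed through the STRAP eCLIP-seq peak lists of mouse embryos and embryoid bodies (EBs): Anp32e, Anp32a, Anp32b, Set, Ptma and Nap1l1. A peak was counted for a gene when its summit lay between the first and last base of that gene, and the genes had been chosen by their known acidic proteins and with the positions, tags and tissue of their peaks already seen. By this rule 43 of 10748 deposited peaks belonged to the 6 genes, of which 42 were among the 5969 eCLIP peaks and 1 was an input peak.

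Histone chaperones escort histones, which are basic proteins, between their synthesis, the nucleosome and their removal from DNA, and many of them carry long runs of aspartate and glutamate. Because the codons for glutamate (GAA and GAG) and aspartate (GAT and GAC) all begin with GA, an acidic run is written in an mRNA rich in purines (A and G). STRAP, a WD40-domain protein, is known to work with the SMN complex that assembles small nuclear ribonucleoproteins, and eCLIP-seq records the RNA to which it can be crosslinked by ultraviolet light.

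STRAP was immunoprecipitated from UV-crosslinked lysates of wild-type C57BL/6 tissue, and the RNA that came down with it was sequenced. The tissues were pooled whole embryos, labelled prenatal day 9.5 (a legend of the study names an earlier stage), and 9-day-old EBs, clusters of embryonic stem cells left to differentiate, kept first in ES medium lacking LIF and afterwards in N2B27 with bFGF. Each tissue had 2 eCLIP libraries (embryo eCLIP-1 and -2, EB eCLIP-1 and -2) and 1 input library of matched fragment size, made without the pull-down. Library depth was 136935 to 228422 tags in the eCLIP libraries and 6289516 to 6825190 tags in the inputs, a tag being a read kept after duplicate removal. Each list holds only peaks that passed the peak caller's threshold within its own library, so a gene without a peak is given as having no peak listed, not as unbound. Tissue identity was checked with 12 marker genes. The 4 erythroid markers all had eCLIP peaks in embryos and none in EBs, 3 of 4 pluripotency markers had them in EBs and none in embryos, and of 4 neural markers 3 had them in embryos and only Sox2 in EBs.

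The members differ in how much of their coding sequence is acidic. An acidic stretch was taken as the longest part of a coding sequence covered by windows of 30 codons with at least 50% aspartate or glutamate codons. Of 21559 protein-coding genes, 864 (4.01%) had one, with a median length of 38 codons. Anp32e held a stretch of 124 codons (codons 137 to 260, 47.7% of its coding sequence), Anp32b one of 119 codons (154 to 272, 43.75%) and Anp32a one of 102 codons (146 to 247, 41.3%). These 3 stretches ran to the last codon, and only 10, 13 and 21 genes respectively had a longer one. The stretch of Set had 68 codons at its very end (222 to 289, 23.5%), that of Ptma 60 codons in its middle (from codon 42, 54.1%) and that of Nap1l1 43 codons near its end (345 to 387, 11%). Nap1l1 had 3 separate stretches by this rule, of which only the longest was used, and each other member had 1. Purines made up 73.1% to 81.5% of the bases in the 6 stretches used, and 55.3% to 68.6% of the same coding sequences outside them. The shorter stretches of Nap1l1 were counted as outside.

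The sequences below are shown because they are the places in the coding exons where tags piled up highest, both inside and outside the acidic stretch. Each is a run of 30 nt of the reference genome, in frame, around the coding summit with the most tags of that exon (GRCm38, plus strand, 5′ to 3′), with glutamate and aspartate codons in capitals.
Anp32e exon 5, chr3:95937917-95937946: GAAgctggcccaccgGAAggctatGAAGAG
Anp32e exon 7, chr3:95945212-95945241: cgaGATgctGAGGATGACgggGAGGAAGAC
Anp32a exon 7, chr9:62377556-62377585: GAAGAAgggagtcagaagcgaaaacgaGAA
Anp32b exon 2, chr4:46460114-46460143: tgcaaagcaatgGATggaaaaattGAGggg
Anp32b exon 3, chr4:46463843-46463872: GACagactagcaGAAGAActtccaagcctc
Anp32b exon 5, chr4:46469900-46469929: GAAGAGGAAGATGAGGATggtGAGGAAGAA
Anp32b exon 6, chr4:46471398-46471427: GAAGAAGAAtttggacatGATgggGAAgtt
Set exon 7, chr2:30070513-30070542: GAAGATattGATGAAGAAggaGATGAGGAT
Ptma exon 3, chr1:86529501-86529530: GAAGAAGAGGAAGAAggtgggGAGGAAGAG
Ptma exon 4, chr1:86529733-86529762: GAGGAGGAGGATggaGATGAAGATGAGGAA
Nap1l1 exon 8, chr10:111492872-111492901: aatGACtatttcacaaatGAAgtgttaaca
The 30 nt of Ptma exon 3 were 96.7% purine and held 8 acidic codons of 10, and those of Anp32b exon 5 and Ptma exon 4 were both 90% purine with 9 of 10. The sites outside the stretch had few acidic codons: Nap1l1 exon 8 and Anp32b exon 2 had 2 of 10 and Anp32b exon 3 had 3. Nap1l1 exon 8 and Anp32b exon 3 were both 56.7% purine. Anp32b exon 2, however, was 76.7% purine, the same as Anp32e exon 7 inside the stretch and above Anp32e exon 5 (66.7%), also inside it. The Anp32a site held 3 acidic codons of 10 but was 86.7% purine, since it crosses the lysine and arginine codons that interrupt its tail.

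Peaks of the members held 3 to 37 tags each in the eCLIP libraries, with a median of 8, against a median of 5 over all eCLIP peaks. Their enrichment over the background of the same library was 7.95-fold to 78.95-fold. The peak caller's score, minus 10 times the log10 of its p-value, ran from 50.33, just inside the deposited limit of 50, to 194.05 for Set. In the inputs the only peak was one of 30 tags in Set in EBs. The 2 embryo libraries had 10 and 13 member peaks, and the 2 EB libraries 9 and 10. A peak in every eCLIP library was listed for 5 of the 6 genes, all but Anp32a, where 231 of 3459 protein-coding genes with any peak (6.68%) met the same condition. All 6 had a peak in both embryo libraries (13.5% of genes) and 5 in both EB libraries (15.8%). With the input of the tissue required to be free of peaks these counts were 6 in embryos (10% of genes) and 4 in EBs (12.3%), Set being lost to its EB input peak, and 4 had a peak in every eCLIP library and in neither input (3.53%). The genes were chosen for having peaks, so nothing is read from these counts.

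Anp32e, a chaperone that removes the histone variant H2A.Z from nucleosomes, lies at chr3:95929246-95947390 (GRCm38), and its mRNA of 7 exons codes for 260 amino acids. It had 10 eCLIP peaks. To set libraries of unequal depth side by side, the tags in a gene's peaks were divided by the tags of the library and multiplied by 100000. Anp32e had 16.8 and 11.9 tags per 100000 in embryo eCLIP-1 and -2, and 7.85 and 2.19 in EB eCLIP-1 and -2. Both embryo libraries were above both EB libraries. Overlapping peaks of all 4 eCLIP libraries, each called on its own, merged into 1 region of Anp32e at exon 5 (chr3:95937770-95938091, 24 tags in total). Its summits fell on codons 177, 183, 182 and 212, all within the acidic stretch. A second acidic region, in exon 7, was found in both embryo libraries, with summits at codons 253 and 256 and 11 and 9 tags. Anp32e thus had 6 of 6 coding summits in the stretch. Its remaining eCLIP summits were 3 in the 5′UTR, 90 to 224 nt before the start codon, and 1 in EB eCLIP-1 that lay in an intron 1 nt from the nearest exon end.

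Anp32a, which with Anp32b belongs to the family of leucine-rich acidic nuclear phosphoproteins and is known as an inhibitor of histone acetylation, lies at chr9:62341293-62378812. It had the fewest peaks, 3 in all, merged into 1 region of 28 tags at exon 7 (chr9:62377166-62377881). Its levels were 10.95 and 4.32 tags per 100000 in embryo eCLIP-1 and -2 and 2.19 in EB eCLIP-2, while EB eCLIP-1 had no peak listed. The 2 embryo summits lay at codons 232 and 244, inside the stretch, and the EB eCLIP-2 summit lay in the 3′UTR, 62 nt past the last coding base, although that peak still covered 49 of the 306 bases of the stretch.

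Anp32b (chr4:46450902-46472657), a further member of that family, was the least regular. It had 5.84 and 13.0 tags per 100000 in the embryo libraries and 6.64 and 1.31 in the EB libraries, so that the tissues overlapped. Its 8 eCLIP peaks fell into 7 regions, and only 1 of these, the 5′UTR region held by both embryo libraries with 8 tags in each, was seen in more than 1 library. The 4 coding summits were in exons 2 and 3, outside the stretch, and in exons 5 and 6, inside it. The 2 inside, at codons 196 and 228, both came from EB eCLIP-1 and had 7 and 4 tags, and the 2 outside had 4 and 3 tags. At codon 196 the window of 50 nt on each side of the summit was 89.1% purine, the highest share at any of the 19 coding summits.

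Set, a chaperone that shares the inhibition of histone acetylation with the Anp32 proteins and also inhibits protein phosphatase 2A, lies at chr2:30057378-30072577. Its levels were 24.1 and 11.3 tags per 100000 in embryo eCLIP-1 and -2 and 13.3 and 7.005 in EB eCLIP-1 and -2, with overlapping tissues. The EB input peak amounted to 0.440 tags per 100000. Of its 92 eCLIP tags, 80 were in 1 region that all 4 eCLIP libraries held (chr2:30066327-30067209), with 33, 21, 10 and 16 tags. These 4 summits lay in the first exon of the transcript Set-201 (chr2:30066456-30066893), 11 to 161 nt before its start codon and downstream of the first exon of the longer Set-202. The EB input peak lay in the same exon, 240 nt before the start codon, which makes it the only one of the 19 member regions on an input peak. The acidic stretch of Set, by contrast, had a single peak, of 12 tags at codon 262 in EB eCLIP-1, covering all 204 bases of the stretch. Most Set tags were thus at the 5′ end of the transcript.

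Ptma encodes prothymosin alpha, a small and very acidic nuclear protein that binds linker histone H1, and lies at chr1:86526726-86530712. It had the most tags of the 6, with 37.2 and 25.4 tags per 100000 in embryo eCLIP-1 and -2 and 16.3 and 9.63 in EB eCLIP-1 and -2. Both embryo libraries were above both EB libraries. All 4 eCLIP libraries held a region over its acidic coding exons (chr1:86528789-86530081, 97 tags), with summits in the stretch at codons 59, 74, 75 and 87 and 37, 22, 27 and 6 tags. EB eCLIP-2 had a further small peak of 5 tags whose summit lay in the intron 9 nt from an exon. The 5′UTR formed the other region (50 tags, 3 libraries), with summits 54 to 103 nt before the start codon. No 5′UTR peak of Ptma was listed in EB eCLIP-1.

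Nap1l1, a chaperone of histones H2A and H2B with roles in nucleosome assembly, lies at chr10:111473223-111498150. Its levels were 19.0 and 10.8 tags per 100000 in embryo eCLIP-1 and -2 and 6.04 and 9.19 in EB eCLIP-1 and -2. The embryo libraries were again above both EB libraries, with the closest pair at 10.8 and 9.19. All 4 libraries held a region at its first exon (chr10:111472974-111473581, 43 tags), 81 to 140 nt before the start codon of the transcript Nap1l1-201. Its 2 coding summits were in exon 8, at codons 225 and 245, well before the stretch, and were held by embryo eCLIP-2 and EB eCLIP-2. Another 2 summits were in the 3′UTR, 6 and 34 nt past the last coding base. The peaks around them reached 21 of the 129 bases of the stretch.

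**Figure D1:**
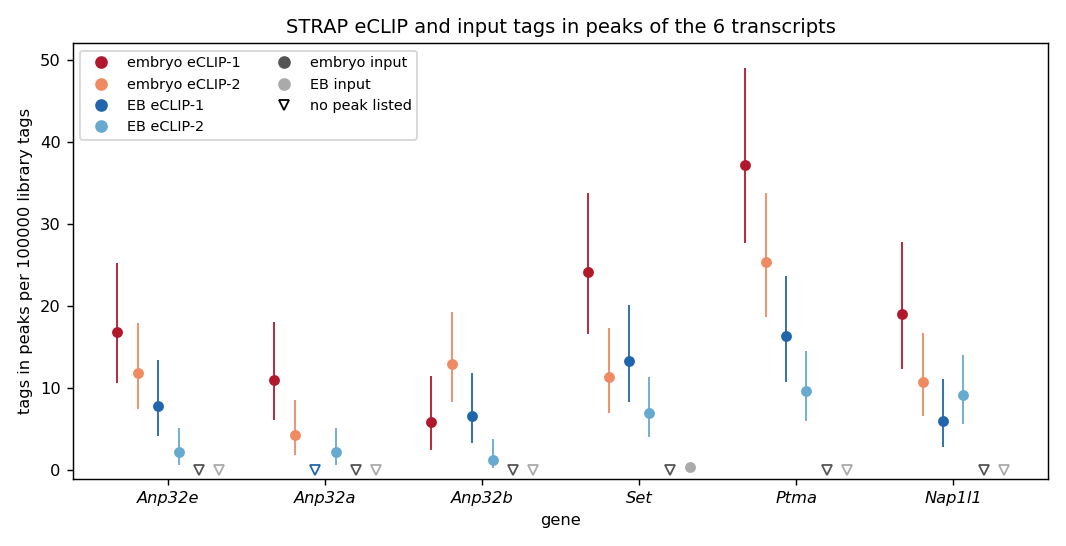
Tags in peaks per 100000 library tags (y axis) for the 6 genes (x axis) in each library; circles are single libraries, bars are 95% exact Poisson intervals of the tag count and open triangles mark libraries with no peak listed. Ptma is highest in all 4 eCLIP libraries, from 9.63 to 37.2, and the EB input peak of Set sits at 0.440.

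The genes were also compared per kb of mRNA, although tags in peaks come from a few sites and not from the whole mRNA. Dividing by length widened the lead of Ptma, whose mRNA is the shortest (1216 nt). Undivided means were 22.1 for Ptma and 13.9 for Set. The mRNA used was that with the longest coding sequence, while most Set tags lay in the first exon of another transcript. Over the 4 eCLIP libraries Ptma had 18.2 ± 9.84 tags per 100000 and kb (SD, n = 4), followed by Set with 4.93 ± 2.57, Anp32b with 3.90 ± 2.80, Anp32e with 2.96 ± 1.89, Nap1l1 with 2.86 ± 1.403 and Anp32a with 2.07 ± 2.24, a library of Anp32a without a peak being entered as 0. Ptma was highest per kb in each of the 4 libraries. Neighbours among the other 5 genes differed by less than their spread between libraries.

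Summed over the 6 genes, peaks held 113.9 and 76.7 tags per 100000 in embryo eCLIP-1 and -2 and 50.1 and 31.5 in EB eCLIP-1 and -2. The mean was 95.3 ± 26.3 in embryos and 40.8 ± 13.2 in EBs (SD, n = 2 each), a ratio of 2.33. Single genes had ratios of 2.86 (Anp32e), 2.41 (Ptma), 2.36 (Anp32b), 1.96 (Nap1l1) and 1.75 (Set). These rested on single libraries: leaving out 1 library gave 1.83 (without EB eCLIP-2) to 6.55 (without EB eCLIP-1) for Anp32e, 1.92 and 3.25 for Ptma and 1.42 and 7.16 for Anp32b without the same libraries, 1.42 (without embryo eCLIP-1) to 2.49 (without embryo eCLIP-2) for Nap1l1, and 1.12 (without embryo eCLIP-1) to 2.53 (without EB eCLIP-1) for Set. All stayed above 1. Peaks covered a mean of 6113 bp per embryo library and 2946.5 bp per EB library, and tags per covered kb were 31.6 and 19.5 in embryo eCLIP-1 and -2 and 21.2 and 36.4 in EB eCLIP-1 and -2, which overlapped. The lower EB sums thus went together with less sequence called as peaks, and EB eCLIP-2, where the peak caller used a fragment size of 76 nt in place of 200 nt, had member peaks with a median length of 148.5 bp against 373 to 555 bp in the others.

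Most transcripts shared this direction. Among the 231 genes with a peak in every eCLIP library, 140 (60.6%) had more tags per 100000 in both embryo than in both EB libraries, and 20 (8.66%) had fewer. Of the 5 members among them 3 (Anp32e, Ptma and Nap1l1) were higher in both embryo libraries and 0 were lower, a share near the background. The median log2 ratio of embryo over EB was 1.24 for these 5 members and 0.67 for all 231 genes, with quartiles of 0.17 and 1.24. Peaks of any kind took up 15.95% and 13.5% of the tags in embryo eCLIP-1 and -2 and 12.6% and 10.3% in EB eCLIP-1 and -2, so this share moved in the same direction. Relative to all tags in peaks of protein-coding genes, the 6 members took 1.39% and 1.14% in embryos and 0.760% and 0.593% in EBs. With 2 libraries against 2, an exact permutation test cannot give a two-sided p below 0.333, and the members were chosen with these values known, so no test was made. In whole tissue, fewer cells that make a transcript and less of it in each cell cannot be told apart, and the part that transcript abundance had in these levels was not tested.

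Along the genes, member summits had 2 main places, the 5′UTR and the coding exons. Of the 42 eCLIP summits, 16 (38.1%) were in a 5′UTR, 19 (45.2%) in coding exons, 3 (7.14%) in a 3′UTR and 4 (9.52%) in introns. Over all protein-coding genes the eCLIP summits divided into 10.4%, 43.05%, 14.5% and 32.0%, and input summits into 6.22%, 6.76%, 3.40% and 83.6%. With summits as deposited, the coding share of the members was thus like that of all genes, while their 5′UTR share was higher and their intron share lower. A site was counted once for each library that held it. With summits moved 62 nt toward the 3′ end in the 3 libraries with the larger fragment size, an alternative for the classes chosen after seeing the data, the members had 15, 16, 7 and 4 summits in these classes, and their 3′UTR share (16.7%) was close to that of all genes (16.8%). After this move their coding share was 38.1% against 48.2% over all genes, so it was no longer alike. Their 5′UTR share was then 35.7% against 8.23%, and their intron share 9.52% against 26.7%. The 4 intronic summits as deposited were 1 to 53 nt from an exon. A 5′UTR summit in at least 2 eCLIP libraries was found for 5 of the 6 members, all but Anp32a, and for 2.86% of genes. A peak of any kind in every eCLIP library was itself listed for only 6.68% of these genes. The members were chosen with their peaks known, so nothing is read from this count.

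**Figure D2:**
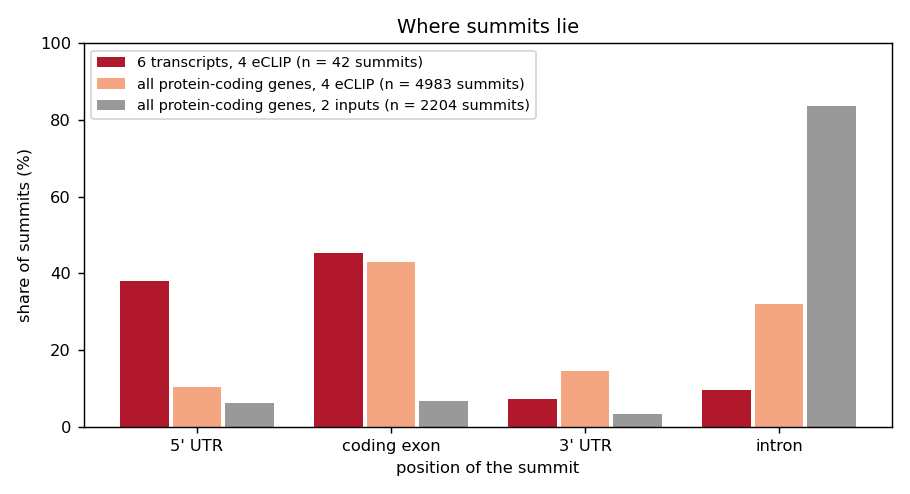
Share of summits (y axis, percent) in each part of a gene (x axis) for the 6 transcripts in the 4 eCLIP libraries, for all protein-coding genes in the 4 eCLIP libraries and for all protein-coding genes in the 2 inputs. The 6 transcripts have 38.1% of their summits in the 5′UTR, against 10.4% over all genes, and few in introns.

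In the coding sequence most summits lay in the acidic stretch. Of the 19 coding summits 15 (78.95%) were inside it: 6 of 6 in Anp32e, 4 of 4 in Ptma, 2 of 2 in Anp32a, 1 of 1 in Set, 2 of 4 in Anp32b and 0 of 2 in Nap1l1. The stretches made up 42.4% of the coding sequence on average over these summits. By library the counts were 4 of 4 and 4 of 6 in embryo eCLIP-1 and -2, and 5 of 5 and 2 of 4 in EB eCLIP-1 and -2. Counted by overlap in place of the summit, 21 of the 42 eCLIP peaks covered at least 1 base of the stretch, in all 6 genes. All tags of those peaks, also those lying outside the stretch, came to 223 of the 453 eCLIP tags. In Nap1l1 the 2 such peaks covered only 21 of the 129 bases and had their summits in the 3′UTR. This overlap was not counted in other genes, so nothing is read from it.

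The position was part of how the genes were proposed, so these counts are a description. In the 198 other genes with an acidic stretch and a coding summit, 55 of 448 eCLIP coding summits (12.3%) lay in the stretch, which made up 6.21% of the coding sequence. In the input libraries it was 6 of 36 (16.7%) against 5.77%. Of 311 genes with a stretch and a peak, 12 (3.86%) had a summit in the stretch in at least 2 eCLIP libraries. Members among them were Anp32e and Ptma, in all 4 libraries, and Anp32a, in 2. The rest were Hnrnpc and P4hb, in 3 libraries each, and Aplp2, Calr, Hnrnpu, Ipo7, Paip2, Peg3 and Ube2r2. Both Anp32e and Ptma also had a 5′UTR summit in at least 2 eCLIP libraries, which 5 of the 311 genes (1.61%) combined.

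**Figure D3:**
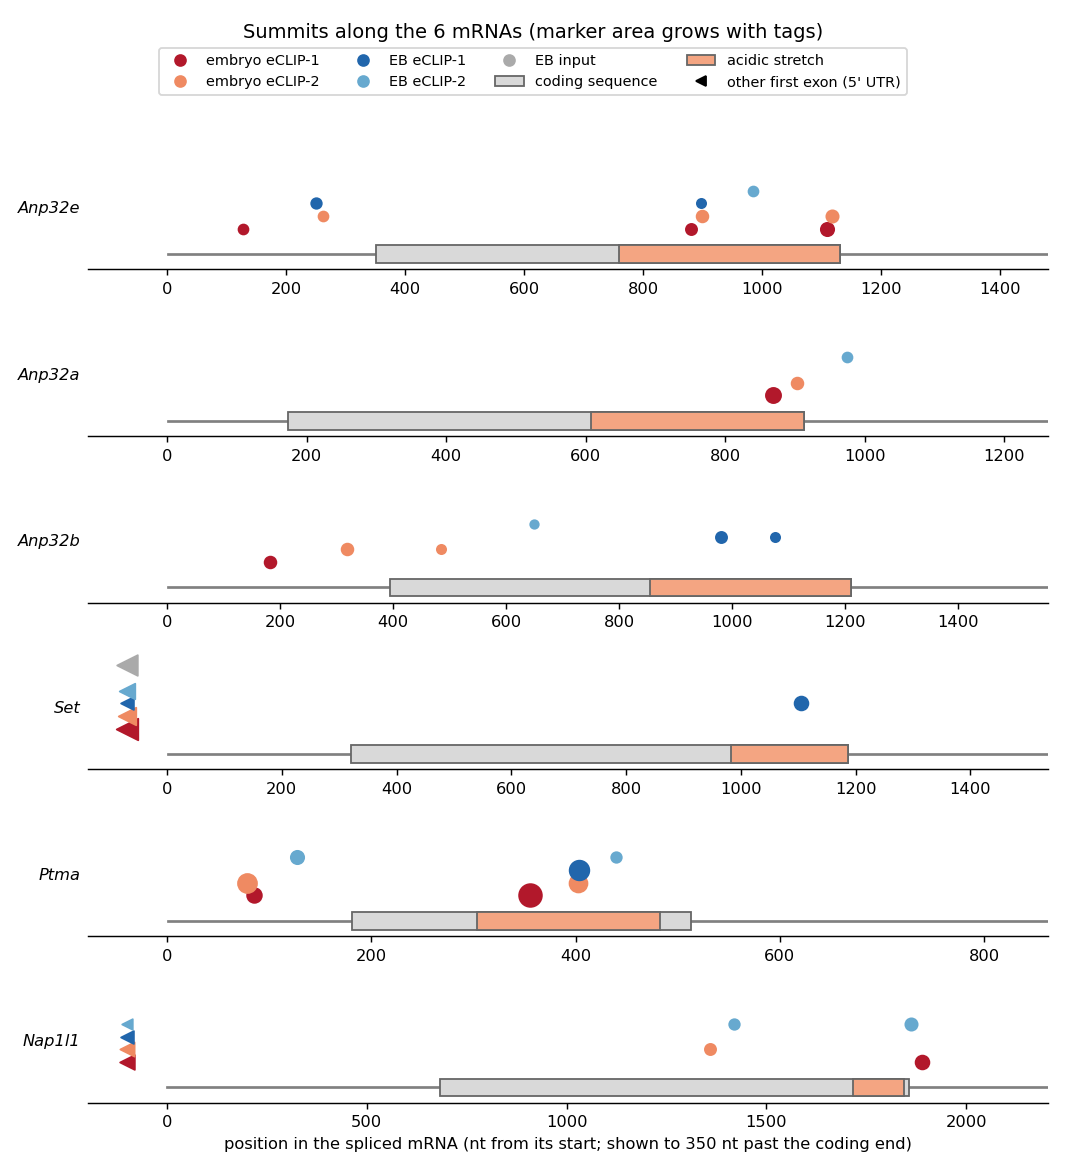
Summits of each library along the spliced mRNA (x axis, nt from its start) of the 6 genes, with the coding sequence in grey and the acidic stretch in orange. Each library has its own height and colour and marker area grows with the tags, triangles at the left stand for summits in another first exon (not to position), and the 4 intronic summits are left out. All 10 coding summits of Anp32e and Ptma lie in the stretch, and both coding summits of Nap1l1 lie before it.

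Some summits lay near the end of the coding sequence. Distances to it were counted along the genome, introns included. Within 200 nt of the last coding base, a window chosen after seeing the data, there were 8 of the 42 member summits (19.05%), in 4 genes, and 13.5% of the 4941 eCLIP summits in other protein-coding genes. They were 22 and 14 nt before it in Anp32e, 45 and 10 nt before and 62 nt after it in Anp32a, 68 nt before it in Anp32b, and 34 and 6 nt after it in Nap1l1. The coding end and the start of the last exon are close together in these genes, and the summits were 4 to 120 nt from that splice site, so the positions do not tell the landmarks apart. Counted along the spliced mRNA, further summits, among them all coding summits of Ptma and that of Set, also lay within 200 nt of the last coding base. Over all members the median coding summit was at 70.4% of the coding length, while the 2121 coding summits of other genes had a median of 49.3%.

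Sequence around the coding summits was rich in purines. In the summit base and 50 nt of mRNA on each side of it the members had a median of 75.25% purines (range 50.5% to 89.1%), and other genes 54.5%. Set against the whole coding sequence of the same gene, the member windows were higher by a median of 7.10 percentage points, and 14 of 19 were above it. The corresponding values for other genes were -0.48 points and 48.0%. The median difference was 12.6 and 3.02 points in embryo eCLIP-1 and -2, and 13.4 and -4.46 points in EB eCLIP-1 and -2. For the members it was below 0 only in EB eCLIP-2, the library with the other fragment size. At the coding summits of other genes it was 2.03 and -0.56 points in embryo eCLIP-1 and -2, and 0.15 and -1.79 points in EB eCLIP-1 and -2. These values too were highest in embryo eCLIP-1 among the embryo libraries and lowest of all in EB eCLIP-2. When the summits of the other libraries were moved 62 nt toward the 3′ end of the gene, to match the smaller fragment size, the median difference over the 15 summits that then fell in the coding sequence of the transcript used was -2.80 points, and 10 of those 15 (66.7%) were in the stretch. The median difference thus changed sign between the 2 placements, over sets of 19 and 15 summits that were not the same, and the reason was not tested. Of the 15 summits in the stretch as deposited, 9 were in it at both placements and 6 moved out of that coding sequence, and 1 other summit moved in.

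Around the member summits 61.3% of the 31 codons centred there were aspartate or glutamate (median), against 12.9% at other coding summits. Over their whole coding sequences the members had 26.6% (Nap1l1) to 47.7% (Ptma) of such codons, and the median of all protein-coding genes was 11.1%. The genes were chosen as acidic, and most summits lay in stretches defined by these codons, so nothing is read from this share. The purine hexamers GAAGAA and GAAGAG together with GAGGAA and GAGGAG, which spell pairs of glutamate codons, were searched on the sense strand, where matches may overlap each other. At least 1 of them was in the window of 50 nt on each side of the summit at 16 of 19 member summits (84.2%). The share was 43.7% at the coding summits of other genes. Of all windows of this length in coding sequences 27.0% held one, and of those in the 6 members 61.3%. The windows of the 6 members differed: every window of Ptma (100%) held a hexamer, against 51.5% in Anp32e and 52.75% in Nap1l1. The windows with none were those of Anp32b codon 31 and of both Nap1l1 summits.

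**Figure D4:**
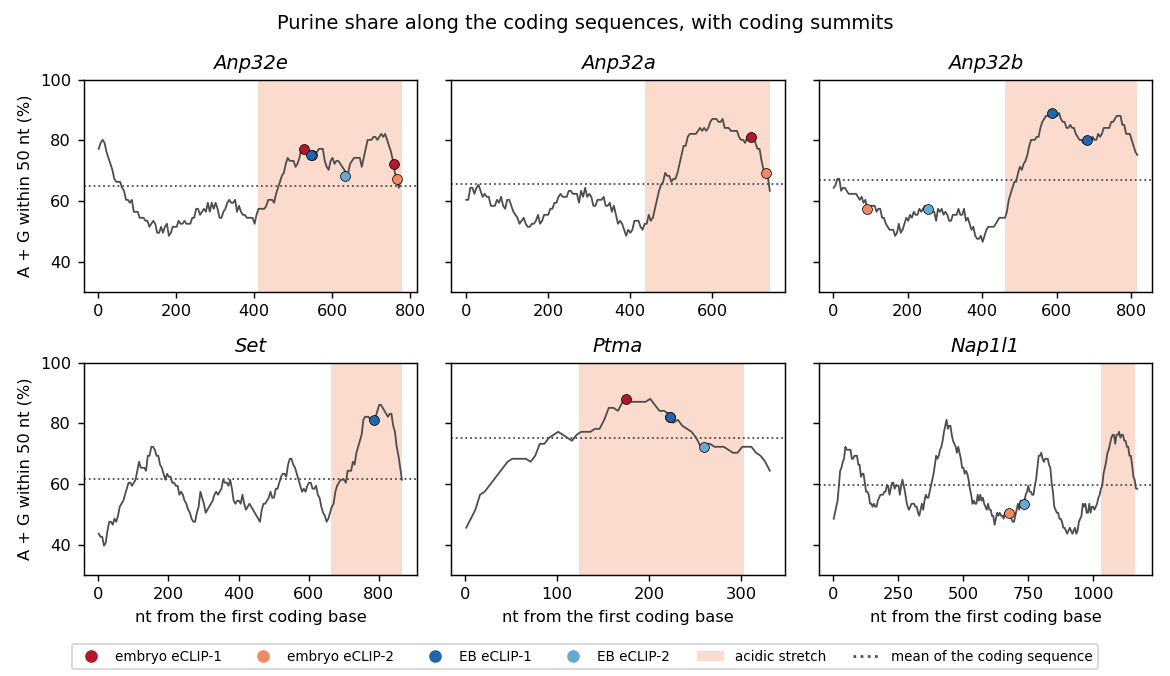
Share of A and G within 50 nt of each position of the mRNA (y axis, percent) along the coding sequence of each gene (x axis, nt from the first coding base), with coding summits as circles coloured by library, the stretch shaded and the mean of the coding sequence dotted. Summits of Anp32e, Anp32a, Set and Ptma lie in the purine-rich stretch, while those of Nap1l1, at 50.5% and 53.5%, lie below the mean of the gene. Those of Anp32b at codons 31 and 85 (both 57.4%) and that of Ptma in EB eCLIP-2 (72.3%) are also below their gene's mean.

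Of the 19 regions formed by merging overlapping member peaks, 11 (57.9%) were held by at least 2 eCLIP libraries, against 29.6% of all 3856 regions, and 4 were held by all 4: Anp32e exon 5, the acidic exons of Ptma and the first exons of Set and Nap1l1. The genes were chosen with their peaks already seen, so nothing is read from the higher share of regions held by at least 2 libraries. The 8 regions in a single library included 6 of Anp32b. A minimum score of 100 left 13 of the 42 peaks, among which 5 regions were held by at least 2 libraries and Ptma was the only member with a peak in all 4.

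Parts of the member sequences also occur elsewhere in the genome. Copies of the coding sequence elsewhere in the genome, at 90% identity or more over at least 50% of its length, were found 13 times for Set, 7 times for Ptma and 2 times each for Nap1l1 and Anp32b, and 0 times for Anp32e and Anp32a. The annotation names a processed pseudogene at 21 of these 24 copies, all but 3 of Set. Every 75-nt piece of the Set and Ptma coding sequences (100%) recurred exactly in some copy, as did 83.1% for Nap1l1 and 10.3% for Anp32b. The study's alignment settings allowed up to 30 placements of a read, although its methods also describe the eCLIP reads as uniquely mapped. The placement of single reads was not examined. Over the 24 copies there were 4 eCLIP peaks with 21 tags, on 3 copies, and 0 input peaks, so few of the tags in peaks were on copies. The 12 coding summits of Anp32e, Anp32a and Anp32b had no exact 75-nt match in a copy. The 5 coding summits of Set and Ptma and 1 of the 2 of Nap1l1 had one. Matches were counted at the summits and not over whole peaks. Only coding sequences were searched for copies, so UTR sequence was not checked. The summits of the Set region with 80 of its 92 eCLIP tags lay in such sequence.

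Other histone chaperones were listed beside the members. Of 35 genes on a list of further chaperones and relatives, 16 had an eCLIP peak, 19 had none listed, and Ptms, Npm1, Ncl, Rbbp4, Atrx and Supt16 had one in every eCLIP library. Ptms, parathymosin, the closest relative of Ptma, had 22.6, 22.7, 10.3 and 3.94 tags per 100000 in embryo eCLIP-1 and -2 and EB eCLIP-1 and -2, but 4 summits in the 3′UTR, 2 in the 5′UTR and 0 in its coding sequence. Ncl, which encodes nucleolin and has a longer acidic stretch (143 codons) than any member, had 62.8, 45.4, 100.9 and 61.3 tags per 100000 and 1 of 8 coding summits in the stretch. Atrx had 0 of 6 in the stretch and Supt16, a subunit of the FACT complex, 0 of 4. Nap1l4 and Dek had peaks in both embryo libraries, and Nasp and Supt6 in both EB libraries, with 0 summits in a stretch in any of the 4.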

How the data were processed

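The authors trimmed the eCLIP-seq reads with cutadapt, discarded those from repeats, used STAR 2.5.2b to align what remained to GRCm38 (up to 30 placements of a read) and ran MACS 1.4.2 on each of the 6 libraries (p below 1e-05). The deposited headers name no control, although the study's methods describe calling against the input. Tags are a deposited count of reads per peak after duplicate removal, the deposited score is the log10 of the p-value multiplied by -10, and the fold is the ratio of tags to the background of the same library, as the authors' peak caller gave it.

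Peaks were assigned by summit to Gencode M21 genes (GRCm38), and positions were read on the transcript with the longest coding sequence, or on another basic transcript where the summit was not exonic there. Peaks carry no strand. Tags were scaled to 100000 library tags, with 95% exact Poisson intervals that cover counting error only. Copies were found with minimap2 2.31. The 6 genes and all lists were chosen with earlier results of these data known, and the text names these genes, listed chaperones with a peak in both libraries of a tissue, genes with a stretch summit in 2 libraries and the 5 genes with the nearest levels. No test across libraries was made. Alternatives were a 5-fold and a score minimum, moved summits, another acidic stretch, a 51-nt window, exon overlap and leaving out each library. The position code was tested on simulated summits. The study describes the EB libraries as biological replicates and the embryo libraries as separate pools. RNA-seq was not analysed here. Python 3.11.15, pysam 0.24.0 and SciPy 1.17.1 were used.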

Additional observations from a re-analysis of the deposited data

How the results depend on the processing

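Of 50 recomputed values of the main results, 44 kept their direction and moved by less than the spread between libraries or, for counts, by at most 1.5 times. The 5-fold minimum and the exon overlap removed no member peak, so their values could not move, and they are counted among the 44. A score of at least 100 brought the summed tags from 68.1 to 37.5 per 100000. With peaks of a score of at least 100, 13 member peaks were left of 42, 5 regions were held by at least 2 libraries in place of 11, 1 member (Ptma) had a peak in every eCLIP library in place of 5, and the log2 ratio of embryo over EB was 1.97 in place of 1.22. With an acidic stretch built from windows of 20 codons and 60%, 47.4% of coding summits lay in it in place of 78.95%, against a mean share of the coding sequence of 28.6%. With summits moved by 62 nt the purine difference turned to -2.80 points from 7.10. Leaving out each library in turn gave 29 to 33 member peaks, 52.8 to 80.25 tags per 100000, log2 ratios of 0.91 to 1.60, 71.4% to 86.7% of coding summits in the stretch, purine differences of 3.52 to 10.25 points, 8 to 11 shared regions and 5 to 6 members with a peak in every remaining eCLIP library. Without EB eCLIP-1 the log2 ratio was 2.71 for Anp32e and 2.84 for Anp32b. No paired analysis was possible because no result came from a test and the libraries of the 2 tissues share only a number. Peaks of 3 to 37 tags in 2 libraries per tissue limit every value, and inputs are seen only where they passed the threshold.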

Other observations

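The 5 genes outside the set whose levels over the 6 libraries lay nearest to the members' mean, by Euclidean distance of log2(tags per 100000 + 1) over 3453 genes, were Tmsb10 (0.456), Atpif1 (0.511), Bptf (0.556), Qk (0.677) and Zfp185 (0.708). Tmsb10, which encodes an actin-binding thymosin, had 16.8 and 10.3 tags per 100000 in embryo eCLIP-1 and -2 and 4.23 and 4.38 in EB eCLIP-1 and -2, and no input peak listed. The members themselves lay between 0.796 (Anp32e) and 3.19 (Anp32a) from that mean.

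The eCLIP peaks on copies were on a Set copy on chromosome 9 that is identical to its coding sequence (4 tags), a Set copy on chromosome 12 (4 tags) and a Nap1l1 copy on chromosome 1 (13 tags in 2 peaks), each in 1 library.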
